A study of Mus musculus with 35 samples.

Results

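The posterior portion of the basolateral amygdala was compared between female mice labelled optimist in a cognitive judgement bias test and mice of the same standard housing that had been tested but carried no bias class. The comparison held 8 of the 35 libraries of the series, 1 per mouse, chosen by the labels for portion, housing and class. The optimists were 1 C57BL/6J mouse and 3 B6D2F1N mice, and the mice without a class, called unclassified here, were 3 C57BL/6J mice and 1 B6D2F1N mouse. C57BL/6J is an inbred strain and B6D2F1N is a first-generation hybrid, so that mice of either strain share a genotype. All 8 mice had been trained from postnatal day 70, for a time that depended on the learning speed of each mouse and ranged from 37 to 90 days over the study, and were then tested for 5 days. Standard housing was the control condition of the study, without access to a playground. The only pessimist among the standard-housed mice, a B6D2F1N mouse, was left out. Replicates are therefore separate mice, but in 2 of the 4 combinations of strain and class a single mouse stands for the group.

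The basolateral amygdala is a cortex-like nucleus of the temporal lobe in which glutamatergic projection neurons, held in check by local GABAergic interneurons, assign positive or negative value to sensory cues. Its output is set by glutamate and GABA-A receptors, by neuropeptides released from interneurons and afferents, by monoamines, and by stress hormones that act through the glucocorticoid and mineralocorticoid receptors. In the judgement bias test of the study, a correct response to a positive cue gave a larger reward than a correct response to a negative cue. Trained mice were then shown intermediate cues, and a response as if to the positive cue was scored as optimistic. The comparison asks whether any transcript of the posterior amygdala differs between mice that scored high and mice that were in neither extreme.

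The 8 posterior libraries held 21409708 to 26126984 reads counted on genes, with a median of 22715483, and 21232 to 25531 genes had at least 1 count. Xist, the transcript that silences 1 X chromosome in female cells, was present in each of the 8 libraries at 70.9 to 211 counts per 1000000 reads on genes (CPM), and the 4 Y-linked genes measured had 0 counts in all of them. Excitatory and inhibitory neuron markers were present throughout. Slc17a7, the vesicular glutamate transporter of cortical-type projection neurons, lay between 147 and 266 CPM, and the summed level of 12 inhibitory neuron markers lay between 1033 and 2010 CPM.

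The libraries did not form 1 cloud. The part of their composition in the results that follow was not tested, apart from a covariate for oligodendrocyte markers. Marker sums fell into 3 sets of libraries that cut across the classes. The 4 C57BL/6J libraries carried 1040 to 1942 CPM of 10 meningeal fibroblast markers, such as Dcn, against 143 to 166 CPM in the 4 B6D2F1N libraries. In the anterior libraries of the same mice, these markers were at 98.4 to 151 CPM in C57BL/6J and 78.8 to 153 CPM in B6D2F1N. Among the posterior B6D2F1N libraries, the unclassified mouse and optimist 1 had 25950 and 21490 CPM of 12 oligodendrocyte markers, whereas optimists 2 and 3 had 2559 and 2813 CPM. The same 2 pairs were separated by striatal projection neuron and intercalated cell markers, at 488 and 491 CPM against 3501 and 2705 CPM. Choroid plexus markers were at 1627 and 3300 CPM in the first pair and at 5243 and 5227 CPM in the second. In bulk samples of this kind, fewer cells of a type and less RNA per cell cannot be told apart.

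The B6D2F1N unclassified mouse and B6D2F1N optimist 1 were also the closest of the 28 pairs of posterior libraries, with a correlation of log2 CPM across genes of 0.972 and a biological coefficient of variation of 16.2%. The other 27 pairs had correlations of 0.908 to 0.942 and coefficients of 26.2 to 45.2%. They were not 1 library deposited under 2 names, since Pmch, which encodes melanin-concentrating hormone of lateral hypothalamic neurons, had 804 CPM in the first and 1.53 CPM in the second. Over 16066 genes with a mean of at least 1 CPM, optimist 1 lay nearer to the unclassified B6D2F1N mouse than to the mean of the other 2 B6D2F1N optimists in 74.7%. The share was 86.4% of the 3941 genes in which the unclassified mouse and the other 2 optimists were at least 1 apart on the log2 scale.

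**Figure D1:**
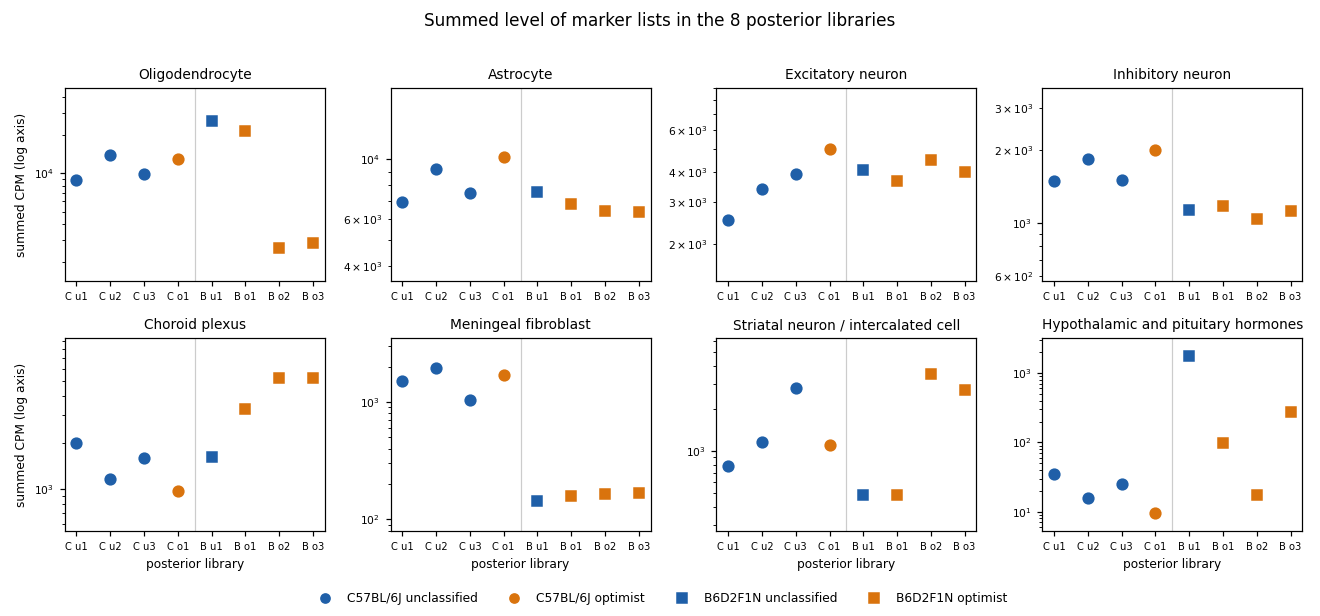
Summed CPM of 8 marker lists (y axes, logarithmic and separate for each list) in the 8 posterior libraries (x axis). C and B stand for C57BL/6J and B6D2F1N, u and o for unclassified and optimist, and each point is 1 mouse. Meningeal fibroblast markers separate the strains in these posterior libraries, though not in the anterior libraries of the same mice. Oligodendrocyte markers at 25950 and 21490 CPM against 2559 and 2813 CPM separate the B6D2F1N unclassified mouse and optimist 1 from optimists 2 and 3.

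With a strain term, no gene passed the test between optimists and unclassified mice. Of 24900 genes with at least 10 counts over the 8 libraries, 0 reached an adjusted p of 0.05 in edgeR's quasi-likelihood test, which is 0% of those tested, and the smallest adjusted p was 1. At an unadjusted p under 0.05 there were 608 genes. Uniform p-values would put a fraction of 0.05 of the genes tested under this limit, so the 608 are no excess over that. Of these, 445 were higher in optimists, 1.79% of the genes tested, and 163 were lower, 0.655%. DESeq2's likelihood ratio test called 0 genes as well, with 558 at an unadjusted p under 0.05. DESeq2's Wald test called 62 genes, each of which had 0 counts in every library of one class, and without a filter on low counts edgeR called 1 gene, Pmch. The strain term of the same fit passed the threshold in 117 genes, 71 of them higher in B6D2F1N. Mice of a strain share a genotype, so these calls do not show what size of class difference the fit could find. The median standard error of a log2 fold change was 0.694 over all genes and 0.297 over the 9885 genes whose class means summed to at least 20 CPM, which gives a median half-width of the 95% interval of 0.644. When each mouse was left out in turn, 0 genes passed in 7 of the 8 fits, and Pmch alone passed without the C57BL/6J optimist. The number at an unadjusted p under 0.05 was 1677 without B6D2F1N optimist 1 and 380 to 737 without any other mouse.

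The genes with the smallest p-values in each direction are given as values that did not pass the test. Of the 12 leading genes that were higher in optimists, 7 had class means under 5 CPM. These were Bmp15, the bicarbonate cotransporter gene Slc4a5, and 5 gene models without a known product. Bmp15, an oocyte growth factor, had 1.25, 0.306, 1.79 and 0.183 CPM in the optimists and 0 counts in each unclassified library, and was at least 6.99-fold higher against 3 counts per library. In 9 of the 12, every optimist lay above every unclassified mouse. The 12 were picked for small p-values in these same libraries, which favours genes without overlap, so this count is no support of its own. Over all genes tested this held for 304 genes, 1.22%, and the opposite order held for 143 genes, 0.574%.

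The other 5 were Cdh4, Plxna3, Kirrel3, Gramd4 and the gene model Gm45457, and none of them passed the test. Cdh4 (GRCm38 chromosome 2, positions 179442431 to 179899373), a classical cadherin that holds cells together, had 60.3, 84.8 and 84.0 CPM in the C57BL/6J unclassified mice and 153 CPM in the C57BL/6J optimist. In B6D2F1N it had 29.3 CPM in the unclassified mouse and 43.2, 111 and 98.8 CPM in the optimists. The optimists were above the unclassified mice within each strain, but across strains the groups overlapped. Its log2 fold change was 1.27 ± 0.34 (SE), with an adjusted p of 1. Kirrel3, an immunoglobulin-type adhesion molecule of synapses, was at 26.3, 34.7 and 42.9 CPM in the C57BL/6J unclassified mice and 58.8 CPM in the C57BL/6J optimist. It was at 20.0 CPM in the B6D2F1N unclassified mouse and at 36.0, 67.2 and 42.9 CPM in the optimists, a log2 fold change of 1.02 ± 0.31. Both genes overlap a non-coding gene on the other strand.

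Plxna3 (chromosome X, 74329066 to 74344689), a receptor for class 3 semaphorins, which guide axons, had 14.2, 18.4 and 14.4 CPM in the C57BL/6J unclassified mice and 31.7 CPM in the C57BL/6J optimist. In B6D2F1N the values were 10.2 CPM without a class and 13.9, 28.3 and 25.3 CPM in the optimists, with a log2 fold change of 1.07 ± 0.33. Gramd4 (chromosome 15, 86057695 to 86137634), which encodes a GRAM-domain protein of mitochondria and endoplasmic reticulum, did not overlap between the classes. It was at 18.9, 18.1, 15.5 and 16.5 CPM in the unclassified mice and at 36.1, 20.4, 33.0 and 36.4 CPM in the optimists, a log2 fold change of 0.95 ± 0.28 with an adjusted p of 1. In each of these 4 genes, B6D2F1N optimist 1 had the lowest level of the 4 optimists.

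**Figure D2:**
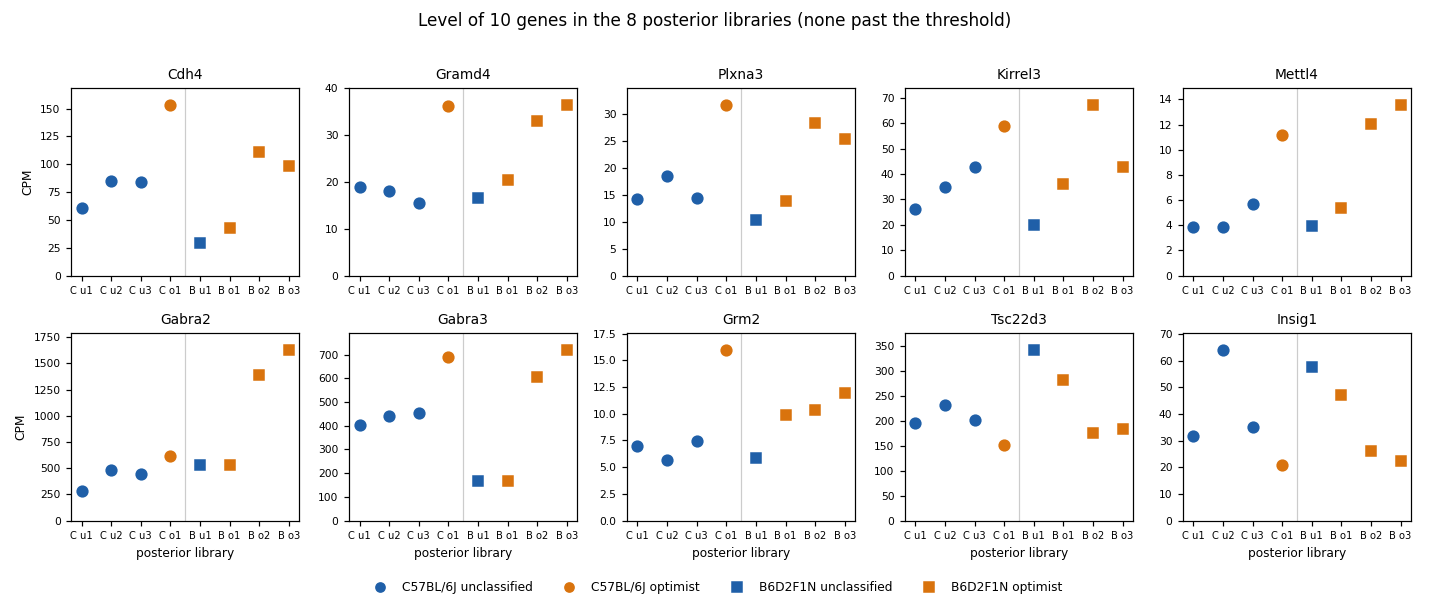
CPM (y axes, starting at 0) of 10 genes in the 8 posterior libraries (x axis), with C and B for C57BL/6J and B6D2F1N, u and o for unclassified and optimist, and 1 point per mouse. None of the 10 passed the test. Gramd4, Gabra2 and Grm2 do not overlap between classes, and B6D2F1N optimist 1 lies beside the B6D2F1N unclassified mouse in most panels, as for Gabra3 at 169 and 168 CPM. The study named Gabra2 as differing between the strains.

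Pmch and Hcrt, the genes with the smallest p-values on the lower side, and Pomc were far higher in 1 library than in most others. Pmch was at 1.55, 2.48 and 2.95 CPM in the C57BL/6J unclassified mice, 1.30 CPM in the C57BL/6J optimist and 1.53, 1.70 and 0.867 CPM in the B6D2F1N optimists, but at 804 CPM in the B6D2F1N unclassified mouse. Hcrt, which encodes the wake-promoting orexins of the lateral hypothalamus, was at 25.9 CPM in the same library and at no more than 0.798 CPM in the other 7. Pomc, the precursor of adrenocorticotropic hormone and melanocortins, was at 138 CPM in it, at 36.9 CPM in B6D2F1N optimist 3 and at 1.06 to 4.63 CPM elsewhere. The summed level of 14 hypothalamic and pituitary hormone genes, a list drawn up after these values were seen, was 1767 CPM in the B6D2F1N unclassified mouse, 274 CPM in B6D2F1N optimist 3, 98.3 CPM in B6D2F1N optimist 1 and 9.50 to 35.5 CPM in the other 5 libraries. Without the B6D2F1N unclassified mouse, the log2 fold change of Pmch was -0.85 in place of -6.27, that of Hcrt was -2.55 in place of -5.75 and that of Pomc was -1.70 in place of -2.59. Within C57BL/6J, Pomc was at 1.06 CPM in the optimist and at 4.03, 3.49 and 2.75 CPM in the unclassified mice.

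The other genes on the lower side had smaller ranges. Tfpt, a subunit of the INO80 chromatin remodelling complex, was at 4.10 CPM in the C57BL/6J optimist against 13.4 to 21.0 CPM in the C57BL/6J unclassified mice, and at 17.2 to 30.4 CPM in the B6D2F1N optimists against 36.9 CPM in the unclassified mouse, a log2 fold change of -1.33 ± 0.41, which was -0.69 without the C57BL/6J optimist and -2.03 without the B6D2F1N unclassified mouse. Rab28, a small GTPase, showed a log2 fold change of -1.01 ± 0.35, or -0.56 without the C57BL/6J optimist, though its mean CPM was 55.5 ± 36.7 (SD, n = 4) in optimists and 57.1 ± 30.2 (SD, n = 4) in unclassified mice, since the strains differed and the classes hold unequal numbers of each. Hbb-bs, a beta-globin gene with a near-identical neighbour whose reads the counting could split, had means of 36.1 ± 16.8 and 98.4 ± 50.2 CPM (SD, n = 4 each). Htra4, Snai1 and H2-Q2 had every optimist below every unclassified mouse, all with class means under 5 CPM, and H2-Q2 belongs to a family of major histocompatibility genes with shared sequence. None of these passed the test.

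More glutamate and GABA-A receptor genes had log2 fold changes above 0 than below, but no member passed the test. Of 14 GABA-A receptor subunits, 11 had a log2 fold change above 0, with a median of 0.45, against 51.4% and a median of 0.02 over all genes tested. Such shares were not particular to receptors. Above 0 were also 10 of 12 inhibitory neuron markers (median 0.16) and 8 of 10 choroid plexus markers (median 0.34). Of 12 excitatory neuron markers, 3 were above 0. Gabra2, the alpha subunit that is abundant in the limbic forebrain, was at 280, 482 and 444 CPM in the C57BL/6J unclassified mice. The C57BL/6J optimist had 620 CPM. In B6D2F1N, Gabra2 was at 531 CPM in the unclassified mouse and at 533, 1390 and 1628 CPM in the optimists. The classes did not overlap, but more of the optimists than of the unclassified mice were B6D2F1N. The study named Gabra2 as differing between the strains. In the anterior libraries of the same mice it was at 274 to 445 CPM in C57BL/6J and 718 to 1476 CPM in B6D2F1N. The narrowest posterior gap between the classes lay between the B6D2F1N unclassified mouse at 531 CPM and B6D2F1N optimist 1 at 533 CPM. Its log2 fold change was 0.89 ± 0.39, with a 95% interval of 0.05 to 1.74 and an adjusted p of 1, and it was -0.000995 in a fit of all posterior libraries of both housings.

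The share of reads that fell on no gene also differed between libraries. It was 14.2, 17.1 and 21.5% in the C57BL/6J unclassified mice and 24.4% in the C57BL/6J optimist, and 17.1% in the B6D2F1N unclassified mouse against 17.7, 25.1 and 21.6% in the B6D2F1N optimists. Within each strain the optimists were thus above the unclassified mice, with B6D2F1N optimist 1 close to the B6D2F1N unclassified mouse. The summed level of 12 excitatory neuron markers was 5000 CPM in the C57BL/6J optimist against 2512 to 3906 CPM in its strain, and 3656, 4493 and 4002 CPM in the B6D2F1N optimists against 4080 CPM. The part of these values in the receptor results was not tested.

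Gabra3 was at 405, 443 and 456 CPM in the C57BL/6J unclassified mice, 689 CPM in the C57BL/6J optimist, 168 CPM in the B6D2F1N unclassified mouse and 169, 605 and 720 CPM in the B6D2F1N optimists. Here 2 optimists of B6D2F1N were above and 1 was level with the unclassified mouse, and the classes overlapped. The log2 fold change was 1.12 ± 0.45, or 0.65 without the B6D2F1N unclassified mouse, and that of Gabrb2, a beta subunit, was 0.71 ± 0.30. Gabra2, Gabra3 and Gabrb2 were the members at an unadjusted p under 0.05, all higher, against 1.79% of all genes tested in that direction. The log2 fold changes of Gabra5, Gabrd and Gabre were below 0. The median of the 14 subunits was 0.35 to 0.55 when each mouse was left out in turn and 0.32 with the mean log2 level of the oligodendrocyte markers as a covariate, an alternative added after the data were seen.

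Of 22 glutamate receptor subunits, 17 had a log2 fold change above 0, and their median was 0.27. Grm2, a presynaptic inhibitory metabotropic receptor, was at 7.01, 5.71, 7.49 and 5.90 CPM in the unclassified mice and at 16.0, 9.87, 10.4 and 11.9 CPM in the optimists. The classes did not overlap, and B6D2F1N optimist 1 lay with the other optimists. The log2 fold change was 1.05 ± 0.35, with an adjusted p of 1. Grik2, a kainate receptor subunit, was at 59.5 to 104 CPM in C57BL/6J unclassified mice against 130 CPM in the optimist, and at 55.1 CPM against 65.8, 133 and 127 CPM in B6D2F1N, a log2 fold change of 0.82 ± 0.31. Gria1, the AMPA receptor subunit that is inserted into synapses during plasticity, had 2132 CPM in the C57BL/6J optimist against 995 to 1369 CPM in its strain, and 746, 1344 and 1012 CPM against 765 CPM in B6D2F1N. The median of the 22 subunits was 0.03 without the C57BL/6J optimist, 0.17 without C57BL/6J unclassified mouse 1 and 0.49 without the B6D2F1N unclassified mouse. Grin1, the obligatory NMDA receptor subunit, had a log2 fold change of 0.15 ± 0.27.

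**Figure D3:**
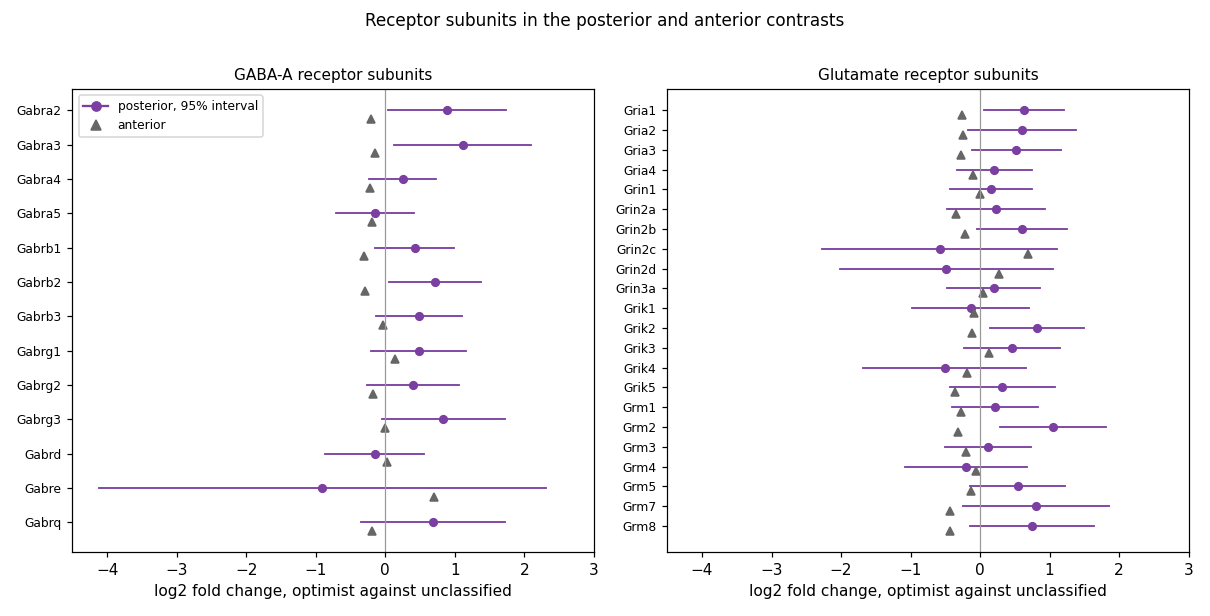
Log2 fold change of optimists against unclassified mice (x axes) for GABA-A (left, with 1 of the 14 not drawn) and glutamate (right) receptor subunits, from the posterior fit with its 95% interval (circles and lines) and from the anterior fit (triangles, no interval drawn). No subunit passed the test in either portion. Of the posterior values of the whole lists, 11 of 14 and 17 of 22 were above 0, and the anterior medians were -0.18 and -0.20.

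Genes of the glucocorticoid response had log2 fold changes in the other direction, and none passed the test. Of 17 tested, all had a log2 fold change below 0, with a median of -0.48, and 1 had an unadjusted p under 0.05 against 0.655% of all genes in that direction. That gene, Tsc22d3, which encodes the glucocorticoid-induced leucine zipper, was at 195, 231 and 202 CPM in C57BL/6J unclassified mice and 151 CPM in the optimist. In B6D2F1N it was at 342 CPM in the unclassified mouse and at 282, 176 and 184 CPM in the optimists. The optimists were lower within each strain, and the classes overlapped between strains. Its log2 fold change was -0.57 ± 0.24, with a 95% interval of -1.09 to -0.06 and an adjusted p of 1. The receptors themselves, Nr3c1 and Nr3c2, had log2 fold changes of -0.51 ± 0.25 and -0.44 ± 0.30. Sgk1, a kinase induced by corticosteroids, was at 273 and 203 CPM in the B6D2F1N unclassified mouse and optimist 1 and at 90.4 to 119 CPM in the other 6 libraries. The summed level of the list, 1509 and 1412 CPM in the B6D2F1N unclassified mouse and optimist 1 and 692 to 1025 CPM in the other 6, followed the same 2 libraries as the oligodendrocyte markers. Of the 12 oligodendrocyte markers, 0 had a log2 fold change above 0, and their median was -0.63. With the oligodendrocyte covariate, the median of the glucocorticoid genes was -0.19. Without the B6D2F1N unclassified mouse it was -0.23.

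Of 18 immediate early genes, which neurons switch on within minutes of firing, 16 had a log2 fold change below 0 and none an unadjusted p under 0.05, with a median of -0.59. Arc, which encodes a synaptic plasticity protein, was at 79.4 and 49.7 CPM in the B6D2F1N unclassified mouse and optimist 1 and at 3.93 to 15.2 CPM in the other 6 libraries. Fos was at 26.3 and 20.9 CPM in the same 2 libraries and at 1.28 to 12.3 CPM elsewhere. In C57BL/6J, Arc was at 9.50 CPM in the optimist and at 15.2, 4.28 and 5.71 CPM in the unclassified mice, within their range.

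Neuropeptides and their receptors had members in both directions. Besides Pomc, the neuropeptides at an unadjusted p under 0.05 were Cartpt and Cck, both lower. Cartpt, a peptide regulated by cocaine and amphetamine, was at 50.4, 65.4, 34.0 and 93.9 CPM in the unclassified mice and at 28.9, 49.4, 8.16 and 7.71 CPM in the optimists, a log2 fold change of -1.45 ± 0.56, or -0.81 without the B6D2F1N unclassified mouse. Cck, which marks a class of interneurons and some projection neurons, had 88.8, 75.5 and 60.7 CPM in C57BL/6J unclassified mice and 29.9 CPM in the optimist. In B6D2F1N, Cck was at 67.4 CPM in the unclassified mouse and at 71.9, 33.5 and 56.6 CPM in the optimists, around that value. The log2 fold change of Cck was -0.82, and -0.32 without the C57BL/6J optimist. Its receptor gene Cckbr lay in the other direction, at 91.2 to 111 CPM against 148 CPM in C57BL/6J and at 48.1 CPM against 53.3, 149 and 222 CPM in B6D2F1N, a log2 fold change of 1.04 ± 0.45, or 0.52 without the B6D2F1N unclassified mouse.

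Npsr1, the receptor of the anxiety-reducing neuropeptide S, was at 2.98, 4.79, 2.51 and 4.15 CPM in the unclassified mice and at 9.55, 2.26, 13.8 and 12.3 CPM in the optimists. Of the optimists, 3 lay above every unclassified mouse and B6D2F1N optimist 1 lay below all of them. These levels were low beside the anterior libraries of the same mice, where Npsr1 was at 34.4 to 211 CPM. Adcyap1r1, the receptor of the stress-related peptide PACAP, did not overlap between classes, at 80.4 to 97.6 CPM in unclassified mice and 98.2 to 175 CPM in optimists. Sst and Npy, the peptides of 2 large interneuron classes, had log2 fold changes of 0.20 ± 0.25 and 0.12 ± 0.23. Of 25 monoamine receptors and transporters tested, only Adra1a, an alpha-1 adrenergic receptor, had an unadjusted p under 0.05. It was at 30.3 CPM in the C57BL/6J optimist against 1.72 to 9.83 CPM in its strain, and at 6.85, 7.77 and 11.1 CPM in B6D2F1N optimists against 5.48 CPM. Its log2 fold change of 1.45 was 0.65 without the C57BL/6J optimist. None of these genes passed the test.

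Other lists held few leading members. Of 23 genes of cholesterol and fatty acid synthesis, Insig1, which holds back sterol synthesis, had an unadjusted p under 0.05, at a log2 fold change of -0.96 ± 0.35. It was at 31.6, 64.1 and 35.2 CPM in C57BL/6J unclassified mice and 20.8 CPM in the optimist, and at 57.8 CPM against 47.3, 26.2 and 22.3 CPM in B6D2F1N. Of 18 heat shock and unfolded protein response genes, Sdf2l1, an endoplasmic reticulum chaperone cofactor, had one of -1.06 ± 0.47, with 6.42 CPM in the C57BL/6J optimist and 18.3 to 38.4 CPM in the other 7 libraries, and without that optimist its log2 fold change was -0.093. Of 12 microglia markers, Cx3cr1, the fractalkine receptor, had a log2 fold change of 0.68 ± 0.26 and C1qc, a complement subunit, one of -1.72 ± 0.66. C1qc was at 3.52 CPM in the C57BL/6J optimist against 27.3, 31.1 and 16.8 CPM in its strain, and at 65.9, 27.8 and 13.9 CPM in the B6D2F1N optimists against 58.0 CPM, so that B6D2F1N optimist 1 lay above every unclassified mouse. Without the C57BL/6J optimist its log2 fold change was -0.69. Of 12 excitatory neuron markers, the transcription factors Tbr1 and Neurod2 had log2 fold changes of -1.19 ± 0.50 and -0.64 ± 0.27, while Slc17a7 was at -0.0025 ± 0.25. Of 12 inhibitory neuron markers, Pvalb, a calcium buffer of fast-spiking interneurons, was at 97.5 and 73.3 CPM in the B6D2F1N unclassified mouse and optimist 1 and at 3.43 to 17.6 CPM in the other 6. Calcrl, of the central amygdala list, was at 125 and 85.9 CPM in B6D2F1N optimists 2 and 3 and at 18.9 to 63.0 CPM elsewhere. With the oligodendrocyte covariate, 0 genes passed the threshold, and the part that the other marker sums had in these results was not tested.

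The 19 genes that the study named for the posterior portion between mice of the highest and the lowest scores were chosen on libraries that include these optimists, and are thus not independent of them. Of the 19, 0 passed the test here and 12 had a log2 fold change above 0, with a median of 0.33. That median was 0.18 without C57BL/6J unclassified mouse 1, 0.21 without C57BL/6J unclassified mouse 2, 0.65 without C57BL/6J unclassified mouse 3 and 0.93 with all posterior libraries of both housings. Mettl4 (chromosome 17, 94722590 to 94750019), a methyltransferase-like gene, was the only one with an unadjusted p under 0.05. It was at 3.82, 3.86, 5.71 and 3.92 CPM in the unclassified mice and at 11.1, 5.40, 12.0 and 13.6 CPM in the optimists. The classes overlapped only through B6D2F1N optimist 1, which lay below C57BL/6J unclassified mouse 3. The log2 fold change was 1.36 ± 0.46, with an adjusted p of 1. Xist was at 94.6, 111, 150 and 70.9 CPM in the unclassified mice and at 154, 88.4, 211 and 133 CPM in the optimists, with a log2 fold change of 0.70 ± 0.34.

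The class difference was also taken within each strain, where the 2 differences share no library. In C57BL/6J it is 1 optimist against 3 unclassified mice, and in B6D2F1N 3 optimists against 1 unclassified mouse, so that each rests on a single mouse on one side and has no test of its own. Over the 16066 genes with a mean of at least 1 CPM, the correlation of the 2 differences in log2 CPM across genes was -0.01, and 53.3% of genes had the same sign in both strains. Of 2316 genes that differed by at least 1 in C57BL/6J, 1157 had the same sign in B6D2F1N, which is 50.0%. At least 1 in both strains, 312 genes had the same sign and 374 opposite signs. Genes are not independent replicates, and these are descriptions.

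**Figure D4:**
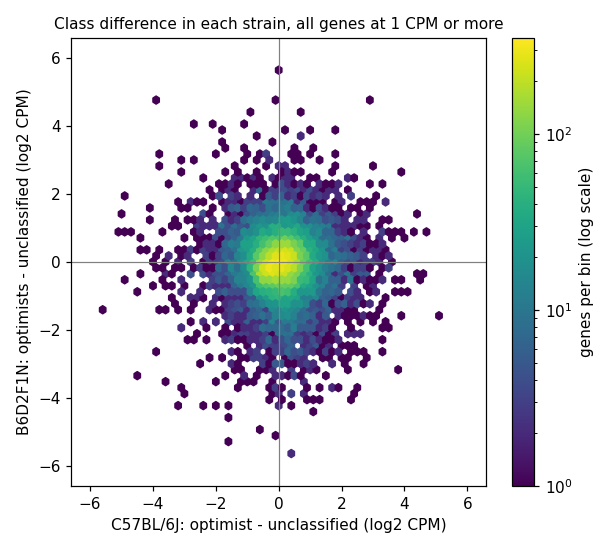
Optimist minus unclassified difference in mean log2 CPM in C57BL/6J (x axis, 1 against 3 mice) and in B6D2F1N (y axis, 3 against 1 mice) for genes with a mean of at least 1 CPM, with colour for the number of genes per bin on a log scale. The cloud has no slope, with a correlation of -0.01, and 3 genes lie outside the axes.

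Among the lists, the strains gave the same sign more often in some than over all genes, of which 26.7% were above 0 in both strains and 25.2% below 0 in both. Of the 17 glucocorticoid genes, 14 were lower in optimists in both strains. Of the 14 GABA-A receptor subunits, 10 were higher in both and 0 lower in both, the exceptions being Gabra5, Gabrd, Gabre and Gabrq. Of the 22 glutamate receptor subunits, 10 were higher in both strains. Such shares were not particular to these lists. Lower in both strains were also 10 of 18 heat shock and unfolded protein response genes and 6 of 12 excitatory neuron markers. Of 12 endothelial cell and pericyte markers, 10 had opposite signs in the strains. Immediate early genes and oligodendrocyte markers were lower in both strains in 6 of 18 and 2 of 12. The members of a list share each library's composition, and the oligodendrocyte markers had differences of -0.29 to 0.81 in C57BL/6J and of -3.06 to -1.73 in B6D2F1N. In a fit of all posterior libraries of both housings, with terms for strain, housing and class, the medians were nearer to 0, at 0.09 for GABA-A receptor subunits, 0.10 for glutamate receptor subunits and -0.15 for the glucocorticoid genes.

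**Figure D5:**
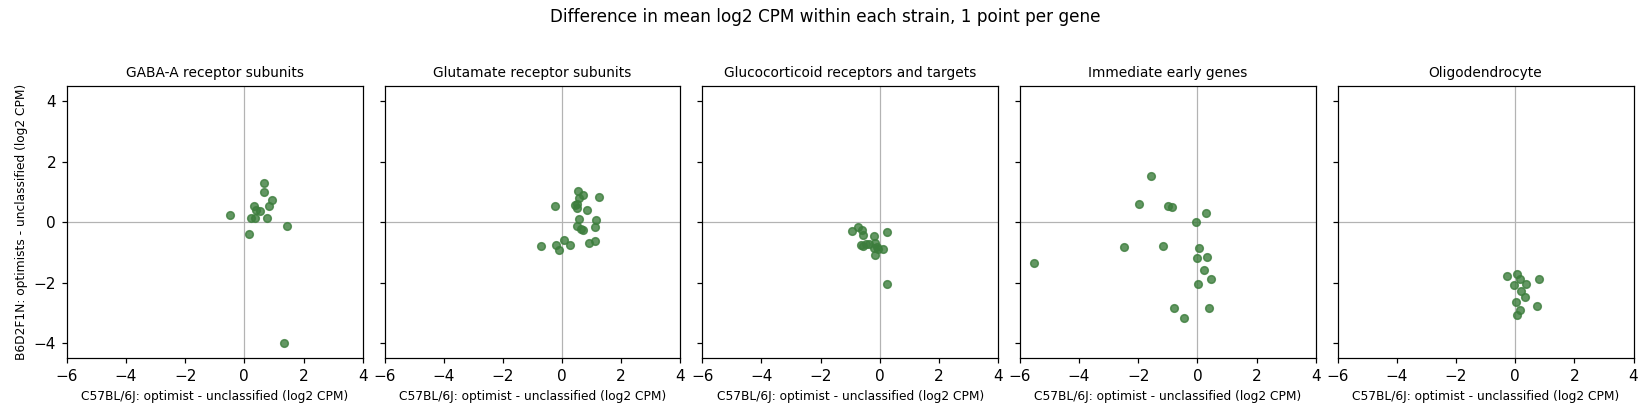
Optimist minus unclassified difference in log2 CPM in C57BL/6J (x axes) and in B6D2F1N (y axes) for the members of 5 lists, with 1 point per gene. Of the GABA-A subunits, 10 of 14 lie in the upper right quadrant, 14 of 17 glucocorticoid genes lie in the lower left, and the oligodendrocyte markers lie near 0 in C57BL/6J and far below 0 in B6D2F1N.

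The difference between strains was taken as an interaction term in the posterior fit. Since 2 of the 4 combinations of strain and class hold 1 mouse, each side of it includes a single mouse with no spread of its own, which is assumed to vary like the mice of the other 2 combinations. The term passed the threshold in 1 of 24900 genes, with 684 at an unadjusted p under 0.05. This gene was Pmch, with an adjusted p of 0.000346 (edgeR), through the 804 CPM of the B6D2F1N unclassified mouse alone, so that it cannot be told apart from a difference of that 1 library.

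The same 8 mice had anterior libraries, where the same contrast also gave 0 of 23931 genes past the threshold (0%), with 424 genes, 1.77%, at an unadjusted p under 0.05. The 2 contrasts share mice but no libraries. Over 15125 genes with at least 1 CPM in both portions, the correlation of the log2 fold changes across genes was -0.05. Of these genes, 45.6% had the same sign in both portions. Of the 357 with an unadjusted p under 0.05 in the posterior portion, 138 had the same sign in the anterior, which is 38.7%. An unadjusted p under 0.05 in both portions was found for 3 genes. Of the 12 leading higher genes, 11 could be tested in the anterior portion and 3 had the same sign. Of the 12 leading lower genes, 10 could be tested and 2 had the same sign. Of the 23 further list members named for an unadjusted p under 0.05, 8 had the same sign. Cdh4 and Gramd4 had anterior log2 fold changes of -0.11 ± 0.27 and -0.17 ± 0.26. The anterior medians were -0.18 for GABA-A receptor subunits, -0.20 for glutamate receptor subunits and 0.04 for the glucocorticoid genes, against 0.01 for all genes.

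The anterior library of B6D2F1N optimist 1 also stood apart, at 3773 CPM of Hcrt and 2296 CPM of Pmch, which were at no more than 10.5 and 11.4 CPM in the other 7 anterior libraries. It had 2898 CPM of excitatory neuron markers, against 3473 to 6621 CPM in the others. Without this mouse, 0 genes passed in the anterior portion as well, with 348 at an unadjusted p under 0.05. The difference between the posterior and the anterior contrast, tested over all 16 libraries with the mouse as a block, passed the threshold in 1 of 26992 genes. This was Prl, the gene of the pituitary hormone prolactin, with an adjusted p of 3e-05 (edgeR). Its posterior values were 381 CPM in the B6D2F1N unclassified mouse, 17.4 and 109 CPM in B6D2F1N optimists 1 and 3 and at most 1.51 CPM in the other 5. Its anterior values were 85.3 CPM in B6D2F1N optimist 3 and at most 4.53 CPM in the other 7. Without the B6D2F1N unclassified mouse, Prl did not pass and C1qc did, and with edgeR's filterByExpr 0 genes passed, with 783 at an unadjusted p under 0.05. Without the C57BL/6J optimist, 36 genes passed, among them Prl, Gh, Pomc, Hcrt, Pmch and the oligodendrocyte markers Mobp and Mbp. Without C57BL/6J unclassified mouse 1, 4 genes passed, and without B6D2F1N optimist 3, 2 passed, with Prl among them in both fits.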

How the data were processed

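RNA of laser-captured cells of the basolateral amygdala was sequenced as single reads of 72 bases from libraries made with a low-input kit. The authors used bcl2fastq for demultiplexing, Trimmomatic 0.38 for trimming, HISAT2 2.1.0 for alignment to GRCm38 and HTSeq 0.11.2 to count reads per Ensembl gene (per the labels and the study's methods). The annotation release and strand setting are not given in the sources used here, so that overlapping genes on opposite strands cannot be separated. The deposited values are raw counts for 52636 genes, neither normalized nor filtered. Reads that HTSeq assigned to no gene (14.2 to 25.1% of the tally in the posterior libraries), to several genes or not uniquely were left out. Such reads carry no molecular identifiers, so that counting limits cover counting error only.

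Genes with at least 10 counts over the libraries of a comparison were fitted with edgeR 4.0.16 in R 4.3.3 (TMM normalization, terms for strain and class, quasi-likelihood F test, Benjamini-Hochberg adjustment over all genes tested, threshold 0.05). CPM values carry the TMM factors, log2 CPM a prior count of 2, and SE is the fold change divided by the square root of F. DESeq2 1.42.0 was an alternative. Symbols and positions came from GENCODE M21. The script was tested on simulated data.

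Named were the 12 genes with the smallest p-values in each direction, genes past the threshold in either interaction, list members with an unadjusted p under 0.05 (at most 4 per list), defining members and Xist. Members and lists were chosen with earlier results of these data known, and the lists of hormone genes and of thalamus genes after the values were seen. No set test was run. Values of 2 list members are not reported here.

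Alternatives were DESeq2's likelihood ratio and Wald tests, its size factors, filterByExpr, no filter, robust empirical Bayes, no strain term, the pessimist included, all libraries of the portion in both housings, and leave-one-out fits over the 8 mice. A covariate for oligodendrocyte markers, and leaving out the closest pair of libraries, were chosen after seeing the data. The pessimist's library, labelled female like the rest, had 0 counts of Xist.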

Additional observations from a re-analysis of the deposited data

Results flagged for a closer look

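In 23 of 143 groups of 4 mice, 1 library lay far from the other 3 of its class by Dixon's criterion, which chance meets in about 1 of 20 groups of like samples. The 23 are given as a description and not set against that rate, since the genes were named for their class difference or after their values were seen, and each class holds 3 mice of one strain and 1 of the other. Of the 23 values, 13 belonged to the B6D2F1N unclassified mouse. Its levels were 804 CPM for Pmch, 25.9 CPM for Hcrt, 138 CPM for Pomc and 381 CPM for Prl, with 1767 CPM for the sum of hypothalamic and pituitary hormones. The sum of thalamus and habenula genes was 1128 CPM in it, against 514 to 545 CPM in the other unclassified mice. It was also the highest unclassified library for Rab28 at 102 CPM, Tbr1 at 22.3 CPM, Pvalb at 97.5 CPM, Adam28 at 1.43 CPM, Slc4a5 at 0.875 CPM, Gm37943 at 0.276 CPM and Gm44440 at 0.0461 CPM, the last of which is 1 read against 0 in the other unclassified mice.

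B6D2F1N optimist 1 stood apart from the other optimists with 65.8 CPM of Grik2, against 127 to 133 CPM, with 73.3 CPM of Pvalb, against 3.43 to 9.63 CPM, and with a sum of 1412 CPM over the glucocorticoid genes, against 692 to 740 CPM. B6D2F1N optimist 3 had 36.9 CPM of Pomc and 109 CPM of Prl. The C57BL/6J optimist, the only optimist of its strain, had sums of 1699 CPM for meningeal fibroblast, 10200 CPM for astrocyte and 2010 CPM for inhibitory neuron markers, and 0.0965 CPM of Cyp2e1, which had 0 counts in the other optimists. C57BL/6J unclassified mouse 3 had 5.71 CPM of Mettl4, against 3.82 to 3.92 CPM in the other unclassified mice.

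The class difference of Pmch differed between the strains by -8.35 on the log2 scale (B6D2F1N minus C57BL/6J, edgeR, adjusted p of 0.000346). Each side of this contrast includes a single mouse whose spread is taken from the others, and the value rests on 1 library, the B6D2F1N unclassified mouse at 804 CPM against 0.867 to 2.95 CPM in the other 7, so that a difference of strain and a difference of that library cannot be told apart. That of Prl differed between the portions by -13.6 (posterior minus anterior, adjusted p of 3e-05), a fitted value that rests on libraries with 0 counts and is no bound.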

How the results depend on the processing

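In the posterior portion, 0 genes passed under DESeq2's likelihood ratio test, DESeq2's size factors, filterByExpr, robust empirical Bayes, no strain term, the pessimist included, all libraries of the portion, the oligodendrocyte covariate and leaving out the closest pair of libraries. DESeq2's Wald test called 62 genes there and 102 in the anterior portion, of which 62 and 100 had 0 counts in every library of one class. Without a filter on low counts, 1 gene passed in each portion, Pmch and Gm28661. With each mouse left out, 0 to 1 genes passed in the posterior portion and 0 to 0 in the anterior. For the difference between portions, filterByExpr gave 0 genes, DESeq2's likelihood ratio test 1 (Ctxn3, not Prl) and leaving out each mouse 1 to 36. For the difference between strains, DESeq2's likelihood ratio test gave 6 genes, Pmch among them. The 48 genes that were named for a p-value leave out Xist and list members such as Slc17a7, Grin1 and Arc. Over these 48 genes, 525 of 526 log2 fold changes under alternatives other than leaving out a mouse kept their sign. The exception was Gabra2, at -0.000995 with all libraries of the portion. With each mouse left out, 0 of 383 changed sign, and of all these values only Pmch and Adam28 passed the threshold, in 2 and 1 fits. Most of these genes were named for small p-values in the same fit, and the alternatives reuse its libraries. The kept signs are therefore no independent support. Within a portion, the class contrast could not be paired, because the classes hold different mice. Replicate numbers were given in accession order and pair no mice between the classes. Only the difference between portions used the mouse as a block. Without the B6D2F1N unclassified mouse, the class contrast rests on C57BL/6J mice alone, and without the C57BL/6J optimist on B6D2F1N mice alone.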
